A study of Mus musculus with 24 samples.

Results

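A set of 10 innate inflammatory genes was followed in mouse lung from birth to adulthood: the interleukin 1 (IL-1) family genes *Il1a*, *Il1b*, *Il18* and *Il1rn*, the tumour necrosis factor gene *Tnf*, the interleukin 6 (IL-6) family genes *Il6* and *Osm*, the growth factor genes *Csf2* and *Csf3*, and the cyclooxygenase gene *Ptgs2*. They were taken by symbol as a fixed set, whatever their values, and are 10 of the 19938 genes named by the array table. Each had 1 row on the array. RNA came from whole lungs of male C57Bl/6N Tac mice kept in a specific pathogen free facility, taken on the day of birth (post-natal day, PND, 0) and at PND 3, 10 and 42. At each age 3 arrays of wild-type (WT) mice and 3 of *Scnn1b*-Tg mice were hybridized, 24 arrays in 8 groups. *Scnn1b*-Tg mice carry, beside their own genes, a transgene for the beta subunit of the epithelial sodium channel under the *Scgb1a1* promoter, which is active in airway club cells, so that the airway surface is dried out by over-absorption of salt and water. No other allele or treatment was given to either genotype. An array holds RNA pooled from mice of 1 age and genotype, for which the labels list 2 animals on 23 arrays and 1 animal on *Scnn1b*-Tg PND 42 replicate 3. The study's methods describe pools of another size, so how many animals stand behind an array is not settled. In either case n counts pools and p-values measure the spread between pools.

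IL-1α, IL-1β and IL-18 are alarm cytokines: the first is held in cells and set free when they are damaged, the other ones are made as precursors that the inflammasome protease caspase-1 cuts. IL-1α and IL-1β act on the same receptor, and the IL-1 receptor antagonist encoded by *Il1rn* occupies that receptor without signalling. TNF and IL-1 both act through the transcription factor NF-κB, which in turn switches on many of these genes, including IL-6, granulocyte-macrophage colony stimulating factor (*Csf2*), granulocyte colony stimulating factor (*Csf3*) and cyclooxygenase 2 (*Ptgs2*). In the lung, *Csf2* is also needed outside inflammation, for alveolar macrophages to mature and clear surfactant. In bulk tissue fewer cells of a type and less RNA per cell cannot be told apart.

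Values are RMA levels, log2 signals of a probe set after quantile normalization, so a difference of 1 is 2-fold. A level compares arrays for 1 gene and does not rank genes. *Scnn1b* was higher in *Scnn1b*-Tg than in WT lungs by 3.04, 3.29, 3.22 and 2.93 log2 at PND 0, 3, 10 and 42, with no overlap at any age. *Sftpc*, the surfactant protein C gene that marks alveolar type II cells, had group means between 13.05 and 13.97. The array files give no detection call, so the 1035 rows of olfactory receptor genes, which lung is not expected to read, served as a scale of signal without specific RNA. Their 95th percentile lay between 4.32 and 5.01 log2 over the arrays. It was lower on all PND 0 arrays (4.32 to 4.41) than on all later ones, those of PND 3 lying at 4.72 to 4.86. That shift bounds what a change from birth can show for a gene near this scale. A change was called where it reached 2-fold with an adjusted p (Benjamini-Hochberg) no higher than 0.05 in limma, fitted to all 8 groups and 21789 rows.

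RefSeq promoter windows (GRCm38.p6, 300 bases around a transcription start, most of them before it) were at hand for 8 of the 10 genes, *Csf3* and *Osm* having no entry. They were searched on both strands for the NF-κB consensus, AP-1 (TGANTCA), C/EBP (TTGCNNAA), CRE (TGACGT) and TATA box (TATAAA) letters, which did not overlap one another in the windows shown. The first 3 windows below belong to the IL-1 genes that were highest together on a single WT array and carry the largest genotype differences, and the last to *Il6*, which held the most motifs and was at background on nearly every array. Capitals mark the matches, and each window reads 5′ to 3′ on the gene's strand.
*Il1a*, chr2:129309923-129310222, minus strand: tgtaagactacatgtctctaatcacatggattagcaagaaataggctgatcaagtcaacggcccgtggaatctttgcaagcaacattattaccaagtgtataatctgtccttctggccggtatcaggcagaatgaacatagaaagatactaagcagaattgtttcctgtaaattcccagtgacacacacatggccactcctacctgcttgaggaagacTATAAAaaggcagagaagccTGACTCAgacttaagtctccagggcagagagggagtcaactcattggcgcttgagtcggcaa
*Il1b*, chr2:129371090-129371389, minus strand: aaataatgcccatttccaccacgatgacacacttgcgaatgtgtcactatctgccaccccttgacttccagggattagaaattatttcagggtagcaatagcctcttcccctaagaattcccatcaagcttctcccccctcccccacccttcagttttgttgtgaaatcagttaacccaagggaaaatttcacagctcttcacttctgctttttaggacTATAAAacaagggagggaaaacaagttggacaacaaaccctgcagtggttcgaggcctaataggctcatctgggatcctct
*Il1rn*, first of 3 starts, chr2:24336610-24336909, plus strand: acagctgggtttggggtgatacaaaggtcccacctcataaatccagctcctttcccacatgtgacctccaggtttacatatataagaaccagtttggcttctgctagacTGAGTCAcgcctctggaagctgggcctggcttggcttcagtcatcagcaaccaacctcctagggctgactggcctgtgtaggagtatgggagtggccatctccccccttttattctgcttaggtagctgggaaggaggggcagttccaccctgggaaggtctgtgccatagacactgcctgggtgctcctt
*Il6*, chr5:30012864-30013163, plus strand: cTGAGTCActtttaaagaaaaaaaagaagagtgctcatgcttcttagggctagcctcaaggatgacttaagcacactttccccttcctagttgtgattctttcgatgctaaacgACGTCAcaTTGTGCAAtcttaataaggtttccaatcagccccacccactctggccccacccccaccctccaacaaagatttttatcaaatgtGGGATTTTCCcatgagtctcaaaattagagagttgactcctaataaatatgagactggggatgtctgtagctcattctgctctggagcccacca

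In *Il1a* the letters TATAAA begin 32 bases before the start and TGACTCA 12 bases before it, and in *Il1b* TATAAA begins 31 bases before the start. The first *Il1rn* window held TGAGTCA and no TATA letters, which stand in the window of a later start. The *Il6* window held the AP-1 match TGAGTCA, the CRE letters on the other strand (ACGTCA), a C/EBP match and, 44 bases before the start, the NF-κB match GGGATTTTCC. No other window of these genes held the NF-κB consensus, which 4.51% of all 32851 promoters hold. AP-1 letters were in windows of 3 genes (*Il1a*, *Il1rn* and *Il6*, against 7.81% of all promoters), C/EBP letters in 3 (*Il6*, *Csf2* and *Ptgs2*, 10.8%), CRE letters in 2 (*Il6* and *Ptgs2*, 7.51%) and TATA letters in 5 (*Il1a*, *Il1b*, *Il1rn*, *Il18* and *Tnf*, 13.6%). Those of *Il18* and *Il1rn* were on the other strand (TTTATA), at -175 in *Il18* and at 15 in window 3 of *Il1rn*, counted from the start. A match is a description of letters and not of a bound site.

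No member was called between the genotypes at any age, where 0.0138%, 0.0184%, 0.151% and 0.34% of all rows were called at PND 0, 3, 10 and 42. From birth to PND 3, *Il1a*, *Il18* and *Csf2* rose in both genotypes, against 9.75% of all rows called in WT and 10.3% in *Scnn1b*-Tg lungs. *Il1rn*, *Il1a* and *Il1b* had the largest differences at PND 10, 1.18, 1.01 and 0.86 log2 higher in *Scnn1b*-Tg lungs. *Il18* and *Csf2* were high at PND 3 in both genotypes, *Ptgs2* was lowest at PND 10 in WT lungs, and *Il6* and *Osm* were above background on a single array and *Csf3* on none. A single WT array at PND 3 had the highest level of 6 of the 10 genes among all 24 arrays, and it bears on every comparison that uses that age.

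**Figure D1:**
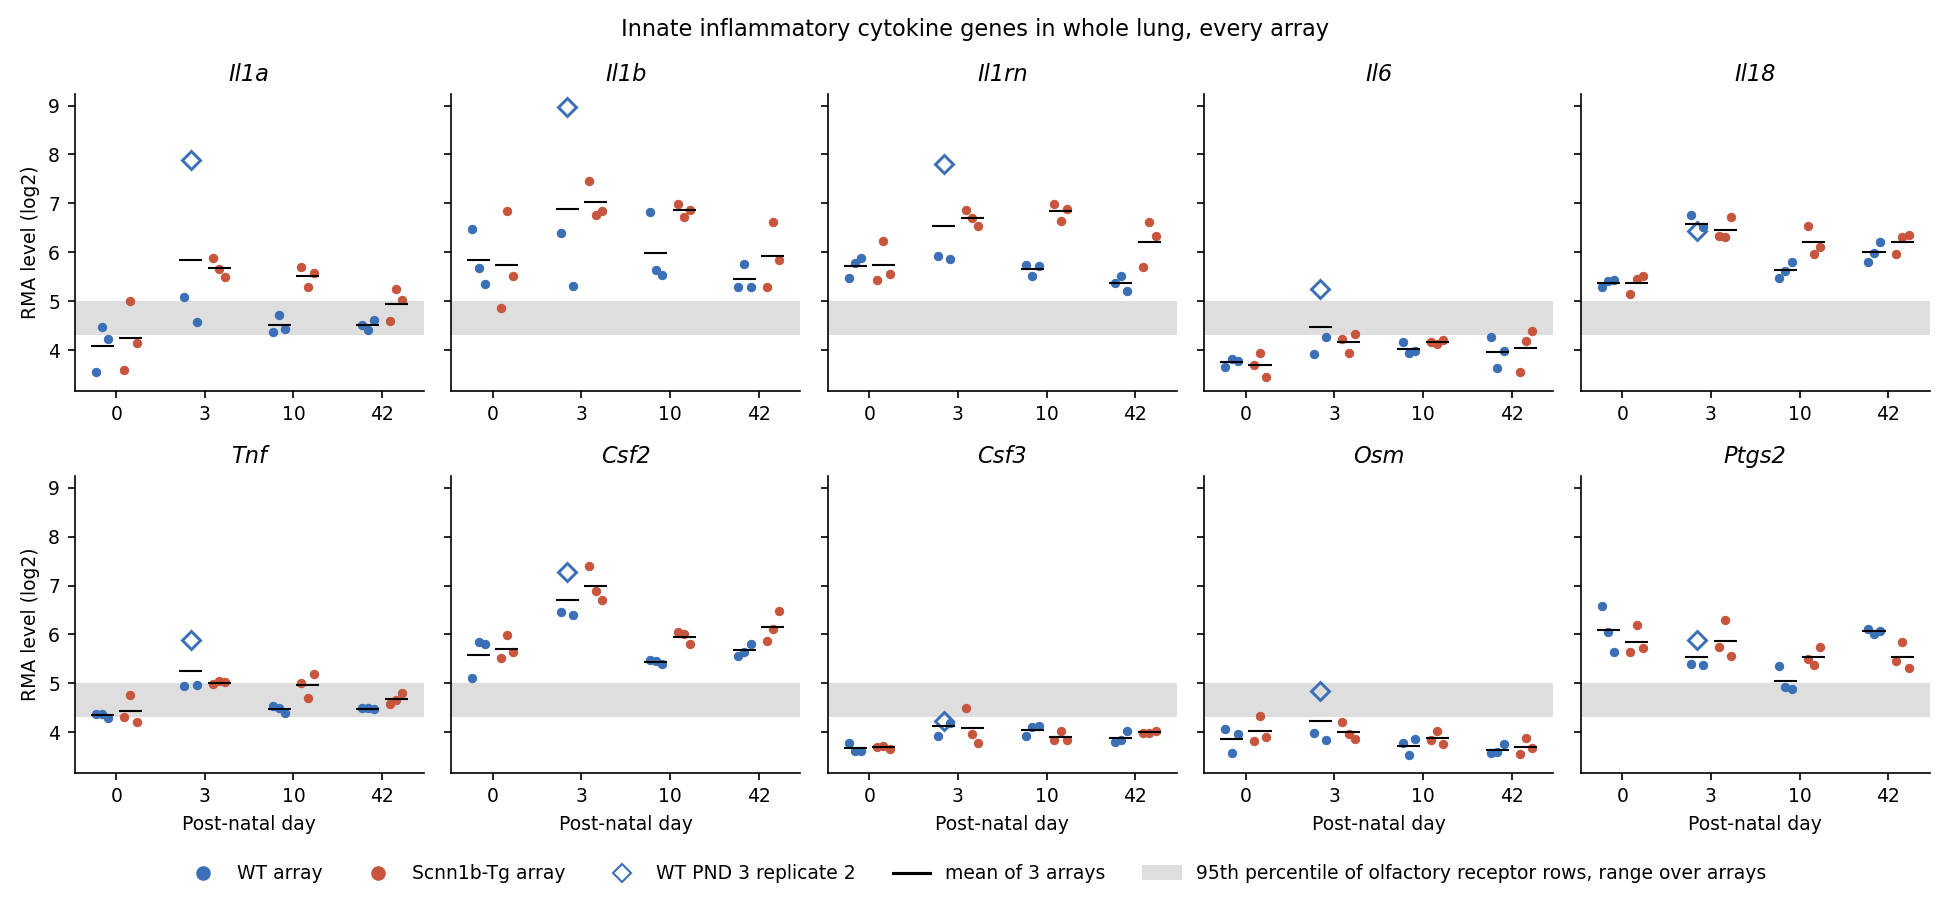
RMA level (log2, y axis) of each of the 10 genes in every array by post-natal day (x axis), WT in blue and Scnn1b-Tg in red, with the mean of 3 arrays as a black line. The grey band spans 4.32 to 5.01, the range over arrays of the 95th percentile of olfactory receptor rows. The open diamond is WT PND 3 replicate 2, at 8.97 for Il1b and 7.89 for Il1a, far above the other 2 WT arrays of that age.

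The array that stands apart is WT PND 3 replicate 2. Against the mean of the other 2 WT arrays of its age, 9 of the 10 genes were higher there, by a median of 0.93 log2, and 4 were higher by at least 1 log2 (*Il1b* by 3.11, *Il1a* by 3.07, *Il1rn* by 1.91 and *Il6* by 1.15 log2). The other 2 *Il6* levels were within background, so its difference gives no fold. *Il18* was the exception at 0.21 log2 lower. Over all rows 192 of 21789 (0.881%) were at least 2-fold higher on that array. The same array held high acute phase RNAs, *Saa3* at 12.12 against 7.11, *Orm1* at 9.12 against 4.64 and *Serpina3n* at 8.75 against 4.63. Of 19 NF-κB subunit and feedback genes 6 were at least 2-fold higher, among them *Nfkbia* (1.42 log2) and *Tnfaip3* (1.32 log2), which encode brakes on NF-κB, and none was 2-fold lower. Among 15 cytokine receptor genes 6 were at least 2-fold higher, led by the decoy receptor gene *Il1r2* (2.54 log2). Neutrophil markers went with it: 7 of 10 were at least 2-fold higher (*Mmp8* by 1.79, *S100a9* by 1.63 and *Retnlg* by 1.60 log2), and the mean of the list was 7.56 against 6.74 and 5.95. Monocyte markers were at least 2-fold higher for 2 of 6 genes and alveolar macrophage markers for 1 of 9, while club cell, endothelial, T and NK cell and B cell markers had none. The part of these cells in the cytokine levels was not tested, and values without this array are given beside the results it moves. The array was singled out by the levels of these same genes. Leaving it out thus raises most of their genotype differences at PND 3 and narrows most of their standard errors by construction. Values without it show how far 1 array moves a result and are no separate support.

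**Figure D2:**
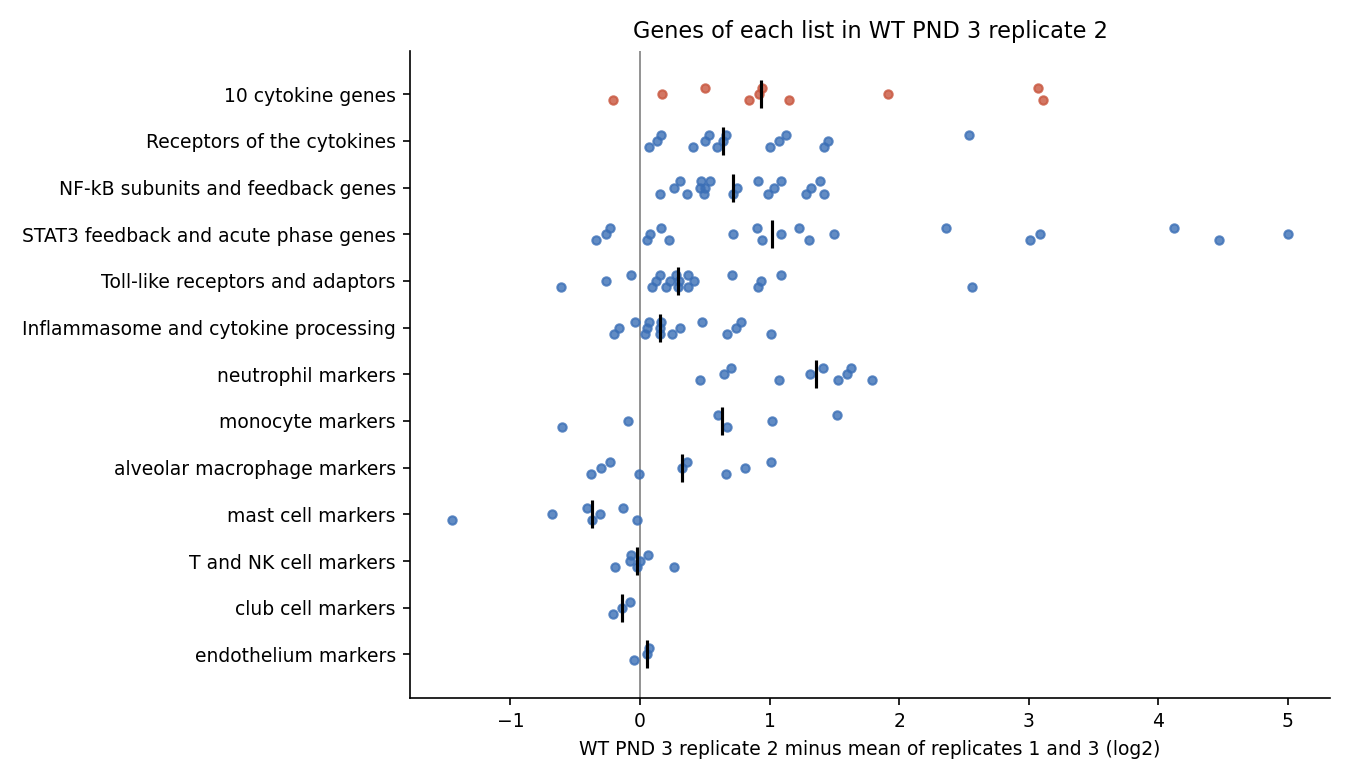
Difference (log2, x axis) between WT PND 3 replicate 2 and the mean of replicates 1 and 3 for every measured gene of each list (y axis), with the list median as a black bar. The 10 cytokine genes, in red, had a median of 0.93 and the neutrophil markers one of 1.36, while the medians of the endothelial (0.05) and T and NK cell (-0.02) lists lay near 0.

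*Il1a*, the cell-held alarm cytokine gene, had levels of 3.56, 4.48 and 4.23 in the 3 WT arrays at PND 0, then 5.08, 7.89 and 4.57 at PND 3, 4.38, 4.72 and 4.43 at PND 10, and 4.51, 4.41 and 4.61 at PND 42. In *Scnn1b*-Tg lungs they were 3.60, 5.01 and 4.14 at PND 0, 5.88, 5.66 and 5.50 at PND 3, 5.71, 5.30 and 5.57 at PND 10, and 4.59, 5.25 and 5.02 at PND 42. The WT arrays thus lay in or near the background band at every age apart from 2 arrays of PND 3, whereas all *Scnn1b*-Tg arrays of PND 3 and 10 lay above it. *Il1a* was above the olfactory receptor percentile of its own array in 13 of 24 arrays. It was above it on 1 of 3 arrays at PND 0 in each genotype and on 1 of 3 WT arrays at PND 10. Such low levels bound what a fold change from these groups can show. From PND 0 to 3 it rose by 1.75 log2 in WT (SE 0.51, adjusted p = 0.0085) and by 1.43 in *Scnn1b*-Tg lungs (SE 0.51, adjusted p = 0.0261), Benjamini-Hochberg adjustment in limma. Without WT PND 3 replicate 2 the WT change was 0.73 log2 (adjusted p = 0.053, limma) and was not called, and the *Scnn1b*-Tg change stayed at 1.43 (adjusted p = 0.000174, limma). Fitted to the compared arrays alone, the WT rise was not called (adjusted p = 0.105, limma). The *Scnn1b*-Tg call was lost without sharing of the spread between genes (adjusted p = 0.0554, limma) and with an intensity trend and robust prior (adjusted p = 0.051, limma). It was also lost, at 1.10 to 1.44 log2, when *Scnn1b*-Tg PND 0 replicate 1 or 3 or PND 3 replicate 1 or 2 was left out.

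*Il1b*, the secreted pyrogenic cytokine, had the widest spread between arrays of a group (median SD 0.62 log2). Its WT levels were 6.47, 5.69 and 5.35 at PND 0, 6.39, 8.97 and 5.32 at PND 3, 6.82, 5.64 and 5.53 at PND 10, and 5.29, 5.76 and 5.30 at PND 42. Its *Scnn1b*-Tg levels were 4.86, 6.84 and 5.51 at PND 0, 7.45, 6.77 and 6.84 at PND 3, 6.98, 6.73 and 6.87 at PND 10, and 5.29, 6.62 and 5.85 at PND 42. At PND 3 and 10 the 3 *Scnn1b*-Tg arrays lay within 0.68 and 0.25 log2 of one another, while WT arrays of the same ages spread over 3.65 and 1.29 log2. No change of *Il1b* was called. It differed between PND 3 and 0 by 1.05 log2 in WT (adjusted p = 0.165) and by 1.28 in *Scnn1b*-Tg lungs (adjusted p = 0.0893), Benjamini-Hochberg adjustment in limma. With WT PND 3 replicate 2 left out these were 0.02 (adjusted p = 0.983) and 1.28 (adjusted p = 0.0184), so that the *Scnn1b*-Tg change was then called by limma. That array was singled out by the levels of *Il1b* among others, so this call is no separate support.

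*Il1rn*, the natural inhibitor of both, had the largest genotype difference of the set on the log2 scale. At PND 10 the WT levels were 5.74, 5.52 and 5.73 and the *Scnn1b*-Tg levels 6.99, 6.65 and 6.89, and at PND 42 they were 5.38, 5.52 and 5.21 against 5.71, 6.62 and 6.33. The groups did not overlap at either age. The difference was 1.18 log2 at PND 10 (95% interval 0.48 to 1.88, adjusted p = 0.144) and 0.85 at PND 42 (95% interval 0.15 to 1.55, adjusted p = 0.349), neither called by limma in the fit to all 24 arrays. With WT PND 3 replicate 2 left out of the fit, which touches neither age and lowers the standard error of the PND 10 difference from 0.34 to 0.20, that difference was called (adjusted p = 0.00606) and the one at PND 42 had an adjusted p of 0.036 below 2-fold, Benjamini-Hochberg adjustment in limma. That array was singled out by the levels of *Il1rn* among others, so the narrower spread follows from the choice and the call is no separate support. At the younger ages the WT levels were 5.48, 5.79 and 5.88 at PND 0 and 5.93, 7.81 and 5.87 at PND 3, and the *Scnn1b*-Tg levels 5.44, 6.24 and 5.55 and then 6.86, 6.70 and 6.54. The genotypes overlapped at birth and, through the single WT array of 7.81, at PND 3.

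*Il18* did not move with the other IL-1 genes on that WT array, and its replicates were close. WT levels were 5.29, 5.41 and 5.44 at PND 0, 6.77, 6.44 and 6.52 at PND 3, 5.48, 5.63 and 5.81 at PND 10, and 5.80, 5.99 and 6.22 at PND 42. *Scnn1b*-Tg levels were 5.15, 5.45 and 5.52 at PND 0, 6.34, 6.32 and 6.72 at PND 3, 6.53, 5.97 and 6.12 at PND 10, and 5.97, 6.31 and 6.35 at PND 42. In both genotypes every array of PND 3 lay above every array of PND 0. It rose by 1.20 log2 in WT (SE 0.16, adjusted p = 2.7e-06) and by 1.08 in *Scnn1b*-Tg lungs (SE 0.16, adjusted p = 8.47e-06), Benjamini-Hochberg adjustment in limma, and the WT rise was 1.27 without replicate 2. The *Scnn1b*-Tg rise was just under 2-fold without *Scnn1b*-Tg PND 0 replicate 1 (0.97) or PND 3 replicate 3 (0.96). From PND 3 to 10 the WT level was lower by 0.94 log2 (adjusted p = 0.000637, limma, just under 2-fold), a change of -1.0 log2 without replicate 2 that was then called (adjusted p = 0.00237). In *Scnn1b*-Tg lungs the same interval gave -0.25 log2 (95% interval -0.58 to 0.07, adjusted p = 0.531, limma). At PND 10 *Scnn1b*-Tg lungs were higher by 0.57 log2 without overlap (95% interval 0.24 to 0.89, adjusted p = 0.128, limma). PND 42 exceeded PND 0 by 0.63 log2 in WT (adjusted p = 0.00215) and 0.84 in *Scnn1b*-Tg lungs (adjusted p = 0.000152), limma, both under 2-fold.

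*Tnf* was above the background percentile in 12 of 24 arrays, 6 of them at PND 3, and its low level bounds what a fold change can show. Its WT levels were 4.38, 4.37 and 4.30 at PND 0, 4.94, 5.89 and 4.96 at PND 3, 4.54, 4.50 and 4.39 at PND 10, and 4.49, 4.50 and 4.47 at PND 42. Its *Scnn1b*-Tg levels were 4.31, 4.77 and 4.22 at PND 0, 4.98, 5.05 and 5.02 at PND 3, 5.0, 4.70 and 5.19 at PND 10, and 4.57, 4.66 and 4.81 at PND 42. All PND 3 arrays were above all PND 0 arrays of their genotype, and *Scnn1b*-Tg arrays were above WT arrays without overlap at PND 10 and PND 42. PND 3 exceeded PND 0 by 0.91 log2 in WT (adjusted p = 0.000343) and by 0.58 in *Scnn1b*-Tg lungs (adjusted p = 0.0119), Benjamini-Hochberg adjustment in limma, both under 2-fold. The background percentile was also higher at PND 3 (4.72 to 4.86) than at PND 0 (4.32 to 4.41), and its part in these differences was not tested. The WT change of *Tnf* without PND 3 replicate 2 was 0.60 log2 (adjusted p = 0.00168, limma). The WT level was then lower by 0.79 log2 at PND 10 (adjusted p = 0.0116), which without PND 3 replicate 2 was 0.47 lower (adjusted p = 0.0715), limma. The genotype difference was 0.49 log2 at PND 10 (adjusted p = 0.341) and 0.19 at PND 42 (adjusted p = 0.807), limma.

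The IL-6 family members and *Csf3*, the granulocyte growth factor, were close to signal without RNA. *Il6* lay between 3.45 and 5.25 and was above the background percentile on 1 array, the 5.25 of WT PND 3 replicate 2. *Osm*, which encodes oncostatin M from activated macrophages and neutrophils, lay between 3.53 and 4.84 and was above it on the same single array. *Csf3* lay between 3.61 and 4.50 and was above it on none. Differences between such values are differences near background and carry no fold. *Il6* at PND 3 against 0 in WT had an adjusted p of 0.0192 (0.73 log2, limma), which was 0.177 without replicate 2. *Csf3* at PND 3 against 0 gave 0.45 log2 in WT (adjusted p = 0.00902, and 0.39 with adjusted p = 0.0391 without replicate 2) and 0.39 in *Scnn1b*-Tg lungs (adjusted p = 0.0205), limma, with all arrays under the background percentile.

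*Csf2* rose and fell around PND 3 in both genotypes. WT levels were 5.11, 5.84 and 5.81 at PND 0, 6.46, 7.27 and 6.39 at PND 3, 5.47, 5.46 and 5.39 at PND 10, and 5.56, 5.65 and 5.81 at PND 42. *Scnn1b*-Tg levels were 5.51, 5.99 and 5.64 at PND 0, 7.39, 6.88 and 6.70 at PND 3, 6.05, 6.02 and 5.80 at PND 10, and 5.87, 6.12 and 6.48 at PND 42. Every PND 3 array lay above every array of the other ages in its genotype. *Csf2* rose from PND 0 to 3 by 1.12 log2 in WT (SE 0.22, adjusted p = 0.000316) and 1.28 in *Scnn1b*-Tg lungs (SE 0.22, adjusted p = 7.28e-05), and fell to PND 10 by 1.27 (adjusted p = 0.00103) and 1.03 (adjusted p = 0.0113), Benjamini-Hochberg adjustment in limma. When WT PND 3 replicate 2 was left out the WT changes were 0.84 log2 (adjusted p = 0.00317) and -0.99 (adjusted p = 0.0102), under 2-fold, and without WT PND 0 replicate 1 the first was 0.88. The *Scnn1b*-Tg fall was not called without *Scnn1b*-Tg PND 3 replicate 1 (-0.84 log2, adjusted p = 0.0838) or PND 10 replicate 3 (-0.96, adjusted p = 0.0624), limma. The *Scnn1b*-Tg level was higher without overlap at PND 10 by 0.52 log2 (95% interval 0.06 to 0.98, adjusted p = 0.476) and at PND 42 by 0.48 (95% interval 0.02 to 0.94, adjusted p = 0.461), limma.

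*Ptgs2*, the inducible enzyme that starts prostaglandin synthesis, followed another course. WT levels were 6.58, 6.05 and 5.64 at PND 0, 5.39, 5.88 and 5.38 at PND 3, 5.35, 4.93 and 4.88 at PND 10, and 6.11, 6.02 and 6.07 at PND 42. *Scnn1b*-Tg levels were 5.64, 6.20 and 5.73 at PND 0, 5.75, 6.30 and 5.57 at PND 3, 5.50, 5.37 and 5.75 at PND 10, and 5.46, 5.84 and 5.31 at PND 42. WT lungs reached their lowest levels at PND 10 and a tight range at PND 42, while the *Scnn1b*-Tg ranges of all ages overlapped. From PND 10 to 42 *Ptgs2* rose by 1.02 log2 in WT lungs (SE 0.22, adjusted p = 0.00131) and differed by 0.00 in *Scnn1b*-Tg lungs (95% interval -0.46 to 0.46), Benjamini-Hochberg adjustment in limma. The WT value lies at the 2-fold limit and drops to 0.93 to 0.99 when WT PND 10 replicate 2 or 3 or WT PND 42 replicate 1 is left out. *Scnn1b*-Tg lungs were above WT at PND 10 by 0.49 log2 (adjusted p = 0.527) and below WT at PND 42, a difference of -0.53 (adjusted p = 0.39), both without overlap. The difference between those 2 genotype effects was -1.02 log2 (SE 0.31, adjusted p = 0.196, limma) and was not called.

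Read by comparison, changes with age outnumbered those with genotype, as for the array as a whole. From PND 0 to 3 *Il1a*, *Il18* and *Csf2* were called in WT lungs (9.75% of all rows, either direction) and the same 3 genes in *Scnn1b*-Tg lungs (10.3%). The adjusted p alone was passed by 7 members in WT (46.6% of rows) and 6 in *Scnn1b*-Tg lungs (49.4%), so the count without a fold limit is near that of the array. Without WT PND 3 replicate 2 *Il18* was the one member called in WT (11.3% of rows), and 5 passed the adjusted p alone (44.3%). From PND 3 to 10 *Csf2* was called in both genotypes (1.29% of rows in WT and 1.09% in *Scnn1b*-Tg lungs), and without that array *Il18* took its place in WT (1.1%). The adjusted p alone was passed by 3 members in WT in that interval (5.03% of rows). From PND 10 to 42 *Ptgs2* was called in WT lungs (5.54%) and no member in *Scnn1b*-Tg lungs (5.17%). Without a fold limit these were again *Ptgs2* in WT lungs (30.4% of rows) and no member in *Scnn1b*-Tg lungs (29.8%). Between PND 0 and 42 limma called none (11.4% of rows in WT and 11.2% in *Scnn1b*-Tg lungs). The adjusted p alone was passed there by *Il18* in each genotype, 1 of 10 members against 56.3% of rows in WT and 53.8% in *Scnn1b*-Tg lungs. The median change of the 10 genes from PND 0 to 3 was 0.86 log2 in WT, 0.37 without replicate 2, and 0.77 in *Scnn1b*-Tg lungs, against 0.06 and 0.07 over all rows. Dim rows moved further: the median olfactory receptor row lay at 3.66 to 3.72 on PND 0 arrays and at 3.92 to 4.02 on PND 3 arrays. *Il6*, *Osm* and *Csf3* lie near that scale. The part of this shift in the median of the 10 genes was not tested.

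**Figure D3:**
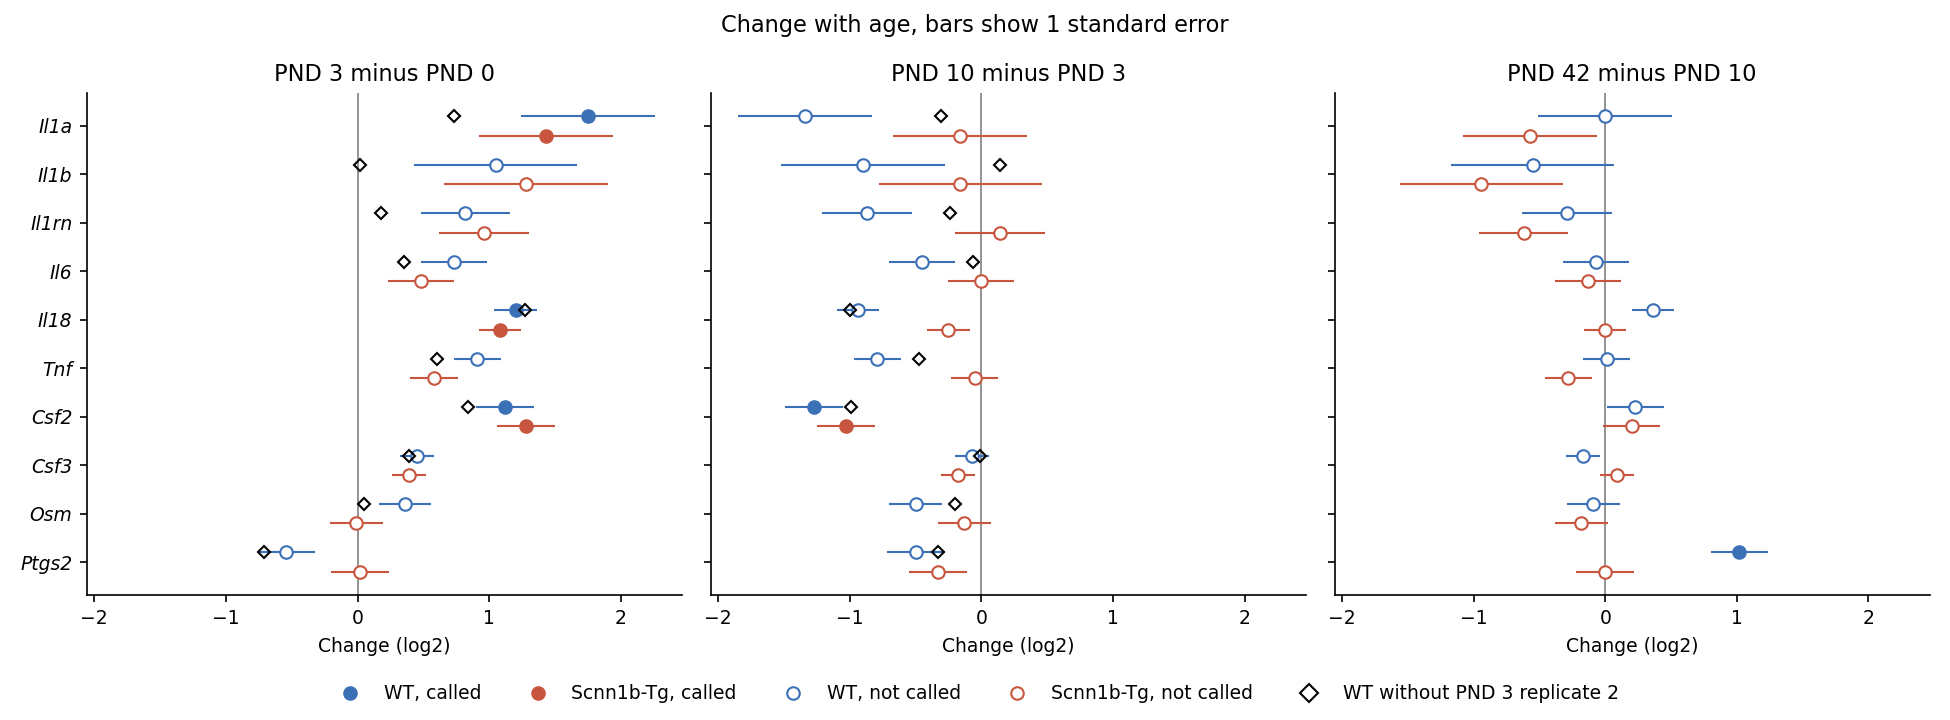
Change between successive ages (log2, x axis) of each gene (y axis) in WT (blue) and Scnn1b-Tg (red) lungs, with bars of 1 standard error and filled points where the change was called. Open diamonds give the WT value without PND 3 replicate 2, which moves Il1a from 1.75 to 0.73 and leaves Il18 at 1.27.

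Between genotypes the differences were smallest at birth and largest at PND 10. At PND 0 limma called 0 members (0.0138% of rows), and differences ran from -0.24 to 0.16 log2. None lay above WT without overlap (5.51% of rows) or below it (7.0%). At PND 3 limma called 0 (0.0184%), and the lowest adjusted p of a member was 0.838 (limma). The median difference was -0.08 log2 and no member lay above WT without overlap (5.39% of rows). Without WT PND 3 replicate 2, the median was 0.29, still 0 were called (0.353%), 4 had an unadjusted p of at most 0.05 (*Il1b* at 1.17, *Il1a* at 0.86, *Il1rn* at 0.80 and *Csf2* at 0.57 log2, 11.0% of rows), and 6 members lay above the other 2 WT arrays (*Il1a*, *Il1b*, *Il1rn*, *Tnf*, *Csf2* and *Ptgs2*, 13.5% of rows). That array was singled out because these genes were high on it, so results without it, here and at PND 10, are partly fixed by that choice. At PND 10 none was called (0.151%), 5 had an unadjusted p of at most 0.05 (8.65% of rows) and 6 lay above WT without overlap (*Il1a*, *Il1rn*, *Il18*, *Tnf*, *Csf2* and *Ptgs2*, 8.67% of rows). Here 9 of the 10 differences were above 0, with a median of 0.50 log2 against -0.00 over all rows. Without WT PND 3 replicate 2 in the fit *Il1rn* was called (0.22% of rows), and with the 6 arrays of PND 10 alone *Il1rn* (adjusted p = 0.00361) and *Il1a* (adjusted p = 0.0129), limma. The fit to 6 arrays leaves out WT PND 3 replicate 2 too, and its share of all rows called is not given. Calls from that fit are no separate support and are not read as a result about the members. At PND 42 none was called (0.34%), 3 had an unadjusted p of at most 0.05 (10.3% of rows), 3 lay above WT without overlap (*Il1rn*, *Tnf* and *Csf2*, 6.67% of rows) and *Ptgs2* lay below (4.06%). Fitted without sharing of the spread between genes, limma called no member between genotypes either.

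**Figure D4:**
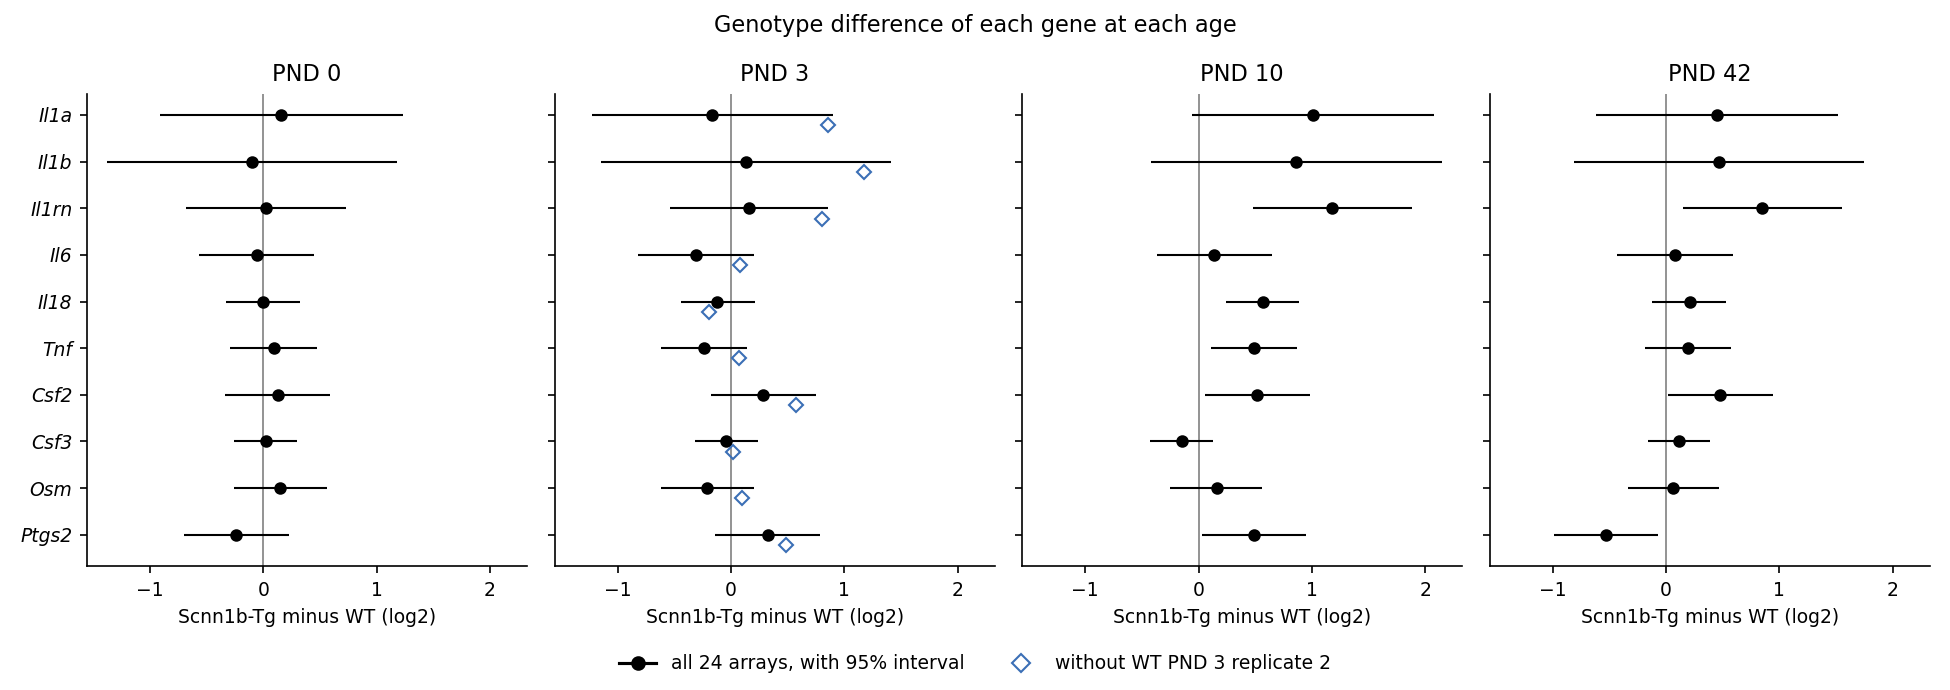
Difference between Scnn1b-Tg and WT lungs (log2, x axis) for each gene (y axis) at each age, with 95% intervals from the fit to 24 arrays. At PND 10 the intervals of Il1rn (0.48 to 1.88), Il18, Tnf, Csf2 and Ptgs2 lie above 0, and at PND 3 the open diamonds give the values without WT PND 3 replicate 2.

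Whether a change with age differed between genotypes was tested as an interaction. No member was called for PND 0 to 3 (0.0% of rows, lowest adjusted p of a member 0.998), PND 3 to 10 (0.00918%) or PND 10 to 42 (0.321%), limma. At an unadjusted p of at most 0.05 in limma, 3 members passed for PND 3 to 10 (*Il1rn*, *Il18* and *Tnf*, against 6.64% of rows). For PND 10 to 42, 1 member passed (*Ptgs2*, against 9.85% of rows). Leaving out WT PND 3 replicate 2, the members at that p were 2 from PND 0 to 3 (*Il1rn* and *Ptgs2*, 8.08% of rows) and 2 from PND 3 to 10 (*Il18* and *Tnf*, 7.76%). The median interaction from PND 3 to 10 was 0.56 log2 with all arrays and 0.06 without WT PND 3 replicate 2.

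The genes around these cytokines were followed in lists. Of 15 measured receptor genes none rose and 4 fell from PND 0 to 3 in WT lungs: *Lifr* by 1.47 log2, *Il6st*, the shared signalling chain of the IL-6 family, by 1.23, *Il6ra* by 1.60, and *Il1rap*, the partner chain of the IL-1 receptor, by 1.15. In *Scnn1b*-Tg lungs *Il6st* and *Lifr* fell, by 1.22 and 1.27 log2. With WT PND 3 replicate 2 left out, 6 fell in WT lungs, *Osmr* (-1.31 log2) and *Csf3r* (-1.05 log2) beside those 4. The median receptor change was -0.28 log2 in WT, -0.71 without that array, and -0.19 in *Scnn1b*-Tg lungs, against 0.06 and 0.07 over all rows. Markers of several cell types fell in the same interval in both genotypes. These were 2 of 3 endothelial genes, the fibroblast gene *Pdgfra* (by 1.44 and 1.48 log2) and the alveolar type II gene *Abca3* (by 1.55 and 1.38). The T and NK cell genes *Cd3g* and *Gzma* rose. The part of these cells in the receptor changes was not tested. At PND 42 *Csf2rb*, the shared chain of the receptor for the *Csf2* product, was higher in *Scnn1b*-Tg lungs by 1.32 log2 (adjusted p = 0.0256, limma), at 6.67 to 7.57 against 5.62 to 6.11 in WT.

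With all arrays, of 16 genes of the inflammasome and cytokine processing 1 was called in any of the comparisons of successive ages or of genotypes: *Pycard*, the adaptor that links sensors to caspase-1, which rose by 1.05 log2 from PND 0 to 3 in *Scnn1b*-Tg lungs. No gene of the 19 Toll-like receptors and adaptors, nor of the 19 NF-κB genes, was called in those comparisons with all arrays. When WT PND 3 replicate 2 was left out, *Adam17* of the first list (-1.02 log2) and *Nfkbiz* of the NF-κB genes (-1.41 log2) fell from PND 0 to 3 in WT lungs. The medians of the Toll-like and NF-κB lists at PND 10 were 0.30 and 0.23 log2 higher in *Scnn1b*-Tg lungs, against -0.00 over all rows. In these lists 14 and 16 of the 19 genes lay above 0, against 49.3% of all rows. Acute phase and STAT3 feedback genes, which IL-6 type cytokines induce, were called at PND 42 for 2 of 20: *Saa3*, at 8.55 to 10.96 against 4.92 to 5.37 in WT (4.37 log2, adjusted p = 0.038), and *Lcn2* (2.01 log2, adjusted p = 0.0256), limma. Neither gene belongs to a single cell type, and their source was not tested. *Il6* and *Osm* were at background at that age, which gives only a bound on their RNA. What raised *Saa3* and *Lcn2* was not tested.

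The prostanoid genes beyond *Ptgs2* differed between genotypes at PND 42 for 2 of 17. *Tbxas1*, which encodes thromboxane synthase, was 1.33 log2 higher in *Scnn1b*-Tg lungs (adjusted p = 8.19e-05), and *Ptgir*, the prostacyclin receptor gene, 1.01 log2 higher (adjusted p = 0.00233), Benjamini-Hochberg adjustment in limma. Both rose from PND 10 to 42 in *Scnn1b*-Tg lungs, by 1.21 and 1.19 log2, and for both the change differed from that in WT (adjusted p = 0.041 and 0.0346, limma). *Ptgis*, prostacyclin synthase, rose by 1.92 log2 in WT lungs in that interval, and *Ptgfr*, a prostaglandin F receptor gene, by 1.22 in WT and 1.38 in *Scnn1b*-Tg lungs. Another gene of the list, *Ptger3*, fell by 1.44 log2 in *Scnn1b*-Tg lungs (adjusted p = 8.26e-06, limma). The *Ptgis* change in *Scnn1b*-Tg lungs in that interval is not given here. Among TNF family ligands *Tnfsf13b*, the B cell survival factor gene, rose from PND 10 to 42 by 2.70 log2 in WT and 2.40 in *Scnn1b*-Tg lungs, and no other of the 11 was called between successive ages or genotypes.

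Markers of inflammatory cells moved with some of these results. At PND 10, where *Il1rn* and *Il1a* differed most, 0 of 10 neutrophil markers were called between genotypes and the list mean ran from 5.71 to 5.97 in WT and from 5.56 to 6.20 in *Scnn1b*-Tg lungs. Of 9 alveolar macrophage markers 1 was called there, *Cd68* (1.13 log2, adjusted p = 0.0363, limma), with list means of 6.84 to 7.10 and 7.06 to 7.45, and 0 of 6 monocyte markers, with list means of 7.55 to 7.61 and 7.33 to 7.42. The monocyte list mean was thus lower in *Scnn1b*-Tg lungs without overlap at PND 10. The same held at PND 3 (6.94 to 7.14 against 7.29 to 7.85 in WT). At PND 42 alveolar macrophage markers were called for 4 of 9 genes (*Chil3* by 2.70, *Itgax* by 1.96, *Cd68* by 1.69 and *Mrc1* by 1.27 log2), with list means of 7.19 to 7.36 in WT and 7.99 to 8.83 in *Scnn1b*-Tg lungs. Of the 6 monocyte markers *Fn1* was called there (1.19 log2, adjusted p = 0.0139, limma), with list means of 6.71 to 6.79 in WT and 6.85 to 7.35 in *Scnn1b*-Tg lungs. None of the 10 neutrophil markers was called between genotypes at PND 42. From PND 0 to 3 *S100a8* rose in WT (1.27 log2) and *S100a8* and *S100a9* in *Scnn1b*-Tg lungs (1.60 and 1.82 log2), and *Mmp9* fell in WT (by 1.01 log2). Without WT PND 3 replicate 2 the WT change of *S100a8* was 0.80 log2 and was not called, while 4 neutrophil markers fell (*Mmp8* by 1.68, *Ngp* by 1.48, *Mmp9* by 1.45 and *Csf3r* by 1.05 log2). RMA gives no zero, so a marker near background has only a bound. The part of these cells in the cytokine values was not tested.

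**Figure D5:**
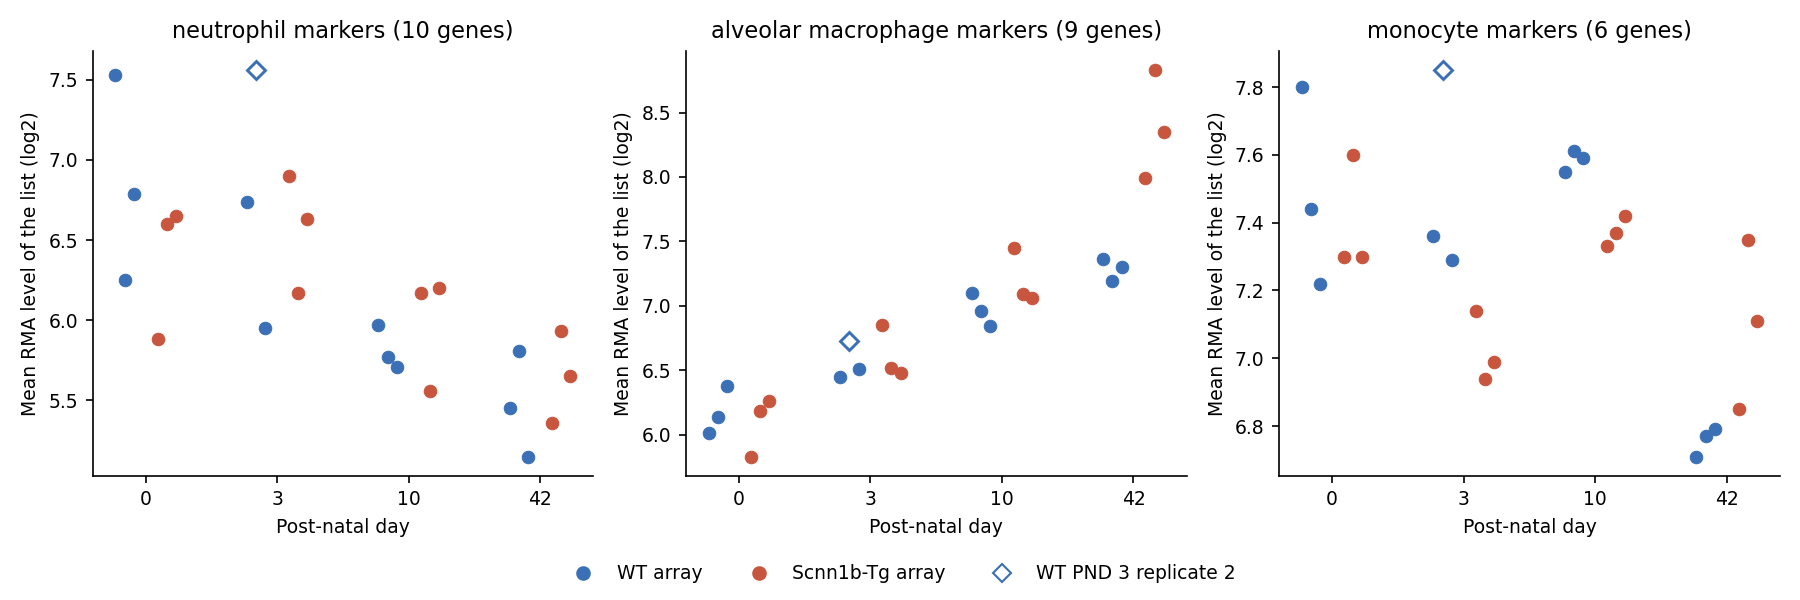
Mean RMA level (log2, y axis) of 3 marker lists in every array by post-natal day (x axis), WT in blue and Scnn1b-Tg in red, with WT PND 3 replicate 2 as an open diamond. The alveolar macrophage list (7.19 to 7.36 against 7.99 to 8.83) and the monocyte list (6.71 to 6.79 against 6.85 to 7.35) separate the genotypes at PND 42. The monocyte list also separates them at PND 3 (7.29 to 7.85 against 6.94 to 7.14) and PND 10 (7.55 to 7.61 against 7.33 to 7.42), with Scnn1b-Tg lower. The neutrophil list is highest in WT PND 3 replicate 2 (7.56) and WT PND 0 replicate 1 (7.53).

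Within groups the IL-1 genes varied together. Deviations from the group mean correlated over the 24 arrays at r = 0.93 for *Il1a* and *Il1rn*, 0.84 for *Il1b* and *Il1rn*, and 0.80 for *Il1a* and *Il1b*, and over the 21 arrays outside WT PND 3 at 0.79, 0.64 and 0.44. For *Il18* the values with *Il1a*, *Il1b* and *Il1rn* were 0.04, -0.04 and 0.02 over 24 arrays and 0.43, 0.10 and 0.35 outside WT PND 3. *Tnf* deviated with *Il1a* and *Il1rn* at 0.85 each (0.56 and 0.57 outside WT PND 3). *Csf2* deviated most closely with *Il1a* (0.79, and 0.73 outside WT PND 3). The arrays share a platform and a normalization, and the values describe these arrays.

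Across all 24 arrays, the genes whose levels were most like those of a member were sought among 5991 rows whose group means span at least 1 log2, for the 6 members that do so themselves. For *Il1a* they were *Il1rn* (r = 0.904), *F10* (0.897) and *Acod1* (0.891). For *Il1b* they were *Cxcl2*, a neutrophil chemokine gene (0.906), *Clec4d* (0.883) and *F10* (0.88), and for *Il1rn* *Cxcl5* (0.925), *Clec4e* (0.913) and *Ccl3* (0.91). In the 23 arrays other than WT PND 3 replicate 2 *Cxcl5* was first for *Il1a* (0.884), *Clec4d* for *Il1b* (0.846) and *Cxcl5* for *Il1rn* (0.904). The closest genes to *Il18* were *1700024G13Rik* (0.866), *Tmem212* (0.859) and *Cd300c2* (0.858), to *Csf2* the small nucleolar RNA gene *Snora69* (0.842), *Ggact* (0.829) and *Snord118* (0.819), and to *Ptgs2* *Mafk* (0.762), *Maob* (0.744) and *Rsph4a* (0.743).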

How the data were processed

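Whole-lung RNA of 3 pools per group was measured on 24 Affymetrix expression arrays of the Mouse Gene ST design. The deposited values are log2 levels that the authors made with RMA in Partek (version 6.5 in the submitters' processing notes), with probe sequence adjustment, quantile normalization and median polish, so that a group-wide shift in all genes is removed and low levels are compressed. Of 35556 rows, 1621 name several genes and 12146 none, and the 21789 that name 1 gene were tested. limma 3.58.1 (R 4.3.3) was fitted to 8 group means with 16 residual degrees of freedom, with Benjamini-Hochberg adjustment within each contrast, and tested on simulated data. Intervals are 95%. Summaries used Python 3.11.15 and pandas 2.3.3. The number of arrays limits the precision. Members, lists and alternatives were chosen with earlier results of these data known. Genes named outside the set are called members of the lists, those at least 2-fold apart on the array that stands apart, those most alike in level by Pearson's r (3 per member) and a few chosen after their values were seen. No scan date was given in the sources used here. Same-numbered arrays of the genotypes did not deviate together at every age and were not paired.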

Additional observations from a re-analysis of the deposited data

Results flagged for a closer look

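The genotype difference of *Ptgs2* had opposite signs at the later ages. *Scnn1b*-Tg lungs lay above WT at PND 10 (5.50, 5.37 and 5.75 against 5.35, 4.93 and 4.88) and below WT at PND 42 (5.46, 5.84 and 5.31 against 6.11, 6.02 and 6.07), without overlap at either age. The difference at PND 42 less that at PND 10 was -1.02 log2 (95% interval -1.67 to -0.37, adjusted p = 0.196, limma), so it did not pass the correction over all rows.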

How the results depend on the processing

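Of the 10 genes, none was called between genotypes in any alternative, except at PND 10, where 2 were called with the compared arrays alone and 1 with WT PND 3 replicate 2 left out of every contrast, an alternative chosen after seeing the data. From PND 0 to 3, leaving out 1 array gave 1 to 6 called in WT (1 without PND 3 replicate 2, 6 without PND 3 replicate 1 or 3) and 1 to 5 in *Scnn1b*-Tg lungs (1 without PND 0 replicate 1, 5 without PND 0 replicate 2). Without WT PND 3 replicate 2 limma called 11.3% of all rows in WT in that interval, against 9.75% with all arrays. From PND 3 to 10 it gave 1 to 3 in WT (3 without PND 3 replicate 3, 2 without PND 10 replicate 3) and 0 to 1 in *Scnn1b*-Tg lungs (0 without PND 3 replicate 1 or PND 10 replicate 3), and from PND 10 to 42 0 to 1 in WT lungs. With no fold threshold 7 and 6 were called from PND 0 to 3 in WT and *Scnn1b*-Tg lungs, 3 from PND 3 to 10 in WT (5.03% of all rows), and 1 in each genotype from PND 0 to 42 (56.3% in WT and 53.8% in *Scnn1b*-Tg lungs). At 1.5-fold they were 5 in WT from PND 0 to 3 (24.9% of all rows), 3 in WT from PND 3 to 10 (3.75%) and 1 in each genotype from PND 0 to 42 (28.8% in WT and 27.8% in *Scnn1b*-Tg lungs). Repeated quantile normalization gave 5 in *Scnn1b*-Tg lungs from PND 0 to 3 and 1 from PND 0 to 42. Array weights gave 2 in WT and 0 in *Scnn1b*-Tg lungs from PND 3 to 10, and subtraction of array medians 0 in WT from PND 10 to 42. For the compared arrays alone, the other arrays left out, repeated quantile normalization, array weights and subtraction of array medians, the share of all rows called is not given. Those counts are therefore not read as results about the members. The causes were not tested.

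Signs turned for *Ptgs2* between genotypes at PND 0 (0.06 with array weights, -0.46 to 0.01 when 1 array was left out, the highest without WT PND 0 replicate 1). When 1 array was left out, values ran from -0.59 to 0.08 for *Il6*, -0.4 to 0.07 for *Tnf* and -0.4 to 0.1 for *Osm* between genotypes at PND 3 and from -1.68 to 0.14 for *Il1b* from PND 3 to 10 in WT, the highest each time without WT PND 3 replicate 2. *Csf3* turned from PND 3 to 10 in *Scnn1b*-Tg lungs (-0.33 to 0.03, the highest without PND 3 replicate 1). A further 104 of 2635 gene values, none called and each within 1 standard error of 0, changed sign. Subtraction of array medians moved the median change of all rows from PND 0 to 3 from 0.06 to 0.16 log2 in WT and from 0.07 to 0.21 in *Scnn1b*-Tg lungs. With the replicate number as a block 3 members were called from PND 0 to 3 in each genotype, and the block changed no count of calls in any comparison. Same-numbered arrays of the genotypes correlated in their deviations at 0.30, 0.15 and 0.29 at PND 0 and at -0.26, -0.02 and 0.08 at PND 3.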

Other observations

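Other arrays than WT PND 3 replicate 2 also held many of the 10 genes on 1 side. In *Scnn1b*-Tg PND 0 replicate 2 all 10 lay above the mean of the other 2 arrays of the group, by a median of 0.48 log2, with *Il1b* at 6.84 against 4.86 and 5.51 and *Il1a* at 5.01 against 3.60 and 4.14. In *Scnn1b*-Tg PND 42 replicate 1 none of the 10 lay above the mean of the other 2, with a median of -0.39 log2 and *Il1b* at 5.29 against 6.62 and 5.85. WT PND 0 replicate 1 had a neutrophil list mean of 7.53, close to the 7.56 of WT PND 3 replicate 2, with *Il1a* at 3.56, the lowest of all arrays, *Il1b* at 6.47 against 5.69 and 5.35, and *Ptgs2* at 6.58, the highest of all arrays. The 10 genes there deviated from the other 2 arrays of the group by a median of -0.05 log2.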
